A study of Drosophila melanogaster with 32 samples.

Results

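The mub line is 1 of 7 Drosophila melanogaster lines, each homozygous for a P-element, that were profiled because the insertion was associated with increased life span. Its members here are the 4 arrays of mub males and mub females, out of 32 arrays in the series, chosen by their titles. They were compared with the 24 arrays of the other 6 insertion lines, pyd, crol, CG10990, CG9238, BG00817 and esg. All 28 arrays thus came from flies that carry a P{GT1} element in the co-isogenic Canton S F background, and the comparison asks what sets mub apart from lines that share both. The 4 arrays of control males and females, which carry no insertion, stayed out of the main tests and are given beside the values as a description. The mub line carries the allele mubBG00043, with its element in an intron of mub. The insertion site of BG00817 was not sequenced, and the genes tagged in CG10990 and CG9238 are now named Pdcd4 and Gbs-70E. Every array held whole-body RNA of a pool of virgin flies, 42 days old, with 2 pools of males and 2 of females per line. Each line is a single stock, so any other feature of the mub stock cannot be told apart from its insertion.

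The gene mub, mushroom-body expressed, encodes an RNA-binding protein with KH domains, of the family that binds cytosine-rich stretches of RNA. Proteins of this family act in splicing, stability and translation of messenger RNA, and in flies mub is counted among the regulators of alternative splicing. An expression array reads a transcript through a few short probes, so it can see a change in transcript form only where a gene has several probe sets.

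Signal is the linear MAS5 value of a probe set, and a probe set was called where its adjusted p in limma was at most 0.05. Sex markers followed the labels on the mub arrays. The yolk protein gene Yp1 had signals of 14690 and 17108 in mub females and 118 and 95.5 in mub males, and EbpII, of the ejaculatory bulb, 14493 and 13400 in mub males and 1.47 and 1.25 in mub females. Replicate arrays correlated at r = 0.964 to 0.985, with 0.984 for mub males and 0.969 for mub females. The log2 ratio of 3′ to 5′ control probes, a sign of RNA quality, was 1.279 and 0.818 on the mub female arrays, and the lower value lies under the 0.977 to 1.598 of the other females. The median signal of all probe sets was 58 and 71 in mub females against 48.2 to 60.4 in the other females. Both readings concern mub female replicate 2, and their part in the results was not tested.

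The mub gene was lower in its own line by 1 of its 2 probe sets. Probe set 1627456_s_at had signals of 532 and 474 on the mub male arrays and 573 to 821 (median 640) on the 12 other male arrays. In females the mub arrays gave 319 and 347, and the other lines 674 to 1134 (median 921). The groups did not overlap in either sex, and the gap was wider in females. The control had 804 and 883 in males and 846 and 1126 in females, above mub throughout. Over both sexes the signal fell by 0.93 ± 0.14 log2 units (SE, 4 mub arrays against 24), a 1.91-fold decrease (limma, adjusted p = 0.00149), and it stayed called when any 1 mub array was left out. With line as a random block the adjusted p was 0.0641. Within females it fell by 1.45 ± 0.14 log2 units (adjusted p = 0.000461), and the difference within males was −0.41 ± 0.14 (adjusted p = 0.575). The sexes differed by 1.04 ± 0.20 log2 units (interaction, adjusted p = 0.0454).

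The other mub probe set, 1625921_at, was not called. Its signals were 480 and 510 in mub males against 421 to 683 in the other males, and 189 and 271 in mub females against 114 to 216 in the other females. One female array thus lay inside the range of the other lines and one above it. The difference over both sexes was 0.20 ± 0.15 log2 units (adjusted p = 0.458). The log2 signal of the brighter probe set minus that of the dimmer one was 0.36 and 0.76 in mub females and 1.98 to 3.04 in the other females. In males it was −0.11 and 0.15 in mub and −0.05 to 0.67 in the others. This difference shifted by −1.13 ± 0.23 (adjusted p = 0.0201 among 620 genes). The shift was not called without mub female replicate 1, without replicate 2, or with line as a random block.

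**Figure D1:**
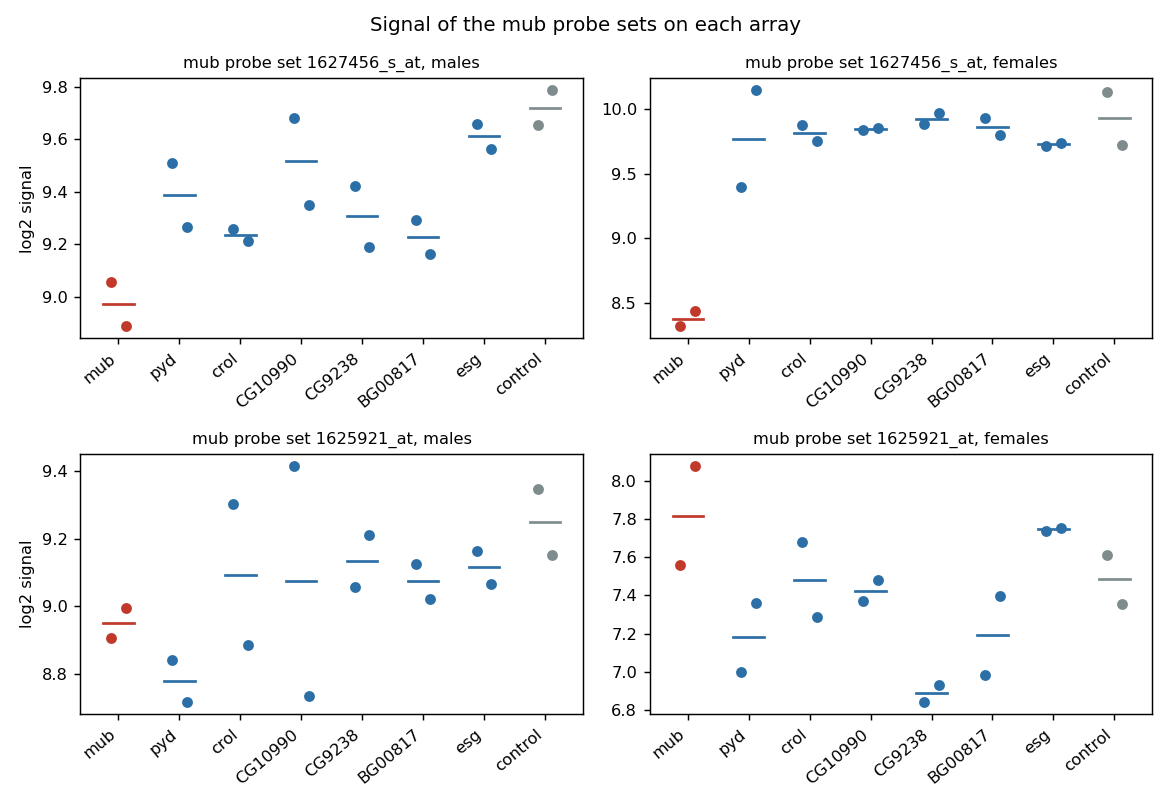
Log2 signal of the 2 mub probe sets on each array, by line, for males and females; points are arrays, bars the mean of 2 arrays, and the vertical ranges differ between panels. On 1627456_s_at both mub arrays lie below every other array in each sex, and on 1625921_at 1 mub female array lies above all the others.

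Over all probe sets kept, 328 were called between mub and the other lines (2.6%), 123 higher in mub (0.973%) and 205 lower (1.62%). Of these, 19 were higher and 25 lower by more than 2-fold in the signals as deposited. These counts include probe sets with signals under the lowest level kept by the filter, for which the change is only a bound. On the lower side tej, for example, was 2.28-fold lower as deposited, and at least 1.03-fold lower with such signals raised to that level. A stricter description asks that, in each sex, both mub arrays lie beyond all 12 arrays of the other lines. Of the called probe sets 92 did so (0.728%), 40 higher and 52 lower, and 78 of them also lay beyond the control arrays. The median difference over all probe sets was −0.005.

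These counts depend on how arrays of 1 line are treated and on the mub female arrays. The 24 reference arrays come from 6 lines, and with line as a random block (estimated correlation 0.171) a single probe set stayed called, that of Nplp3, with an adjusted p of 0.00522. Without mub female replicate 1 there were 32 calls, 25 of them free of overlap, and without replicate 2 there were 17 and 12. With arrays centred on their medians, 230 were higher and 95 lower, and after quantile normalization 77 and 60. By the same fit, each of the other lines against the remaining 6 gave 611 calls in pyd, 286 in BG00817, 220 in CG9238, 66 in crol, 29 in esg and 7 in CG10990. Calls free of overlap numbered 105 in BG00817, 87 in CG9238, 85 in pyd. They numbered 5 in CG10990, 19 in esg and 38 in crol.

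Nplp3, a neuropeptide-like precursor gene, was the most reduced of the genes without overlap. Its signals were 494 and 408 in mub males against 974 to 3343 (median 2308) in the other males, and 344 and 329 in mub females against 459 to 1686 (median 1064). No mub array reached the range of the others. It fell by 1.94 ± 0.26 log2 units, 3.83-fold (adjusted p = 0.000516). Control flies had 621 and 580 in males and 464 and 354 in females, so the control lay much closer to mub than to the other lines.

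CG3552 followed, with 292 and 293 in mub males against 357 to 980, and 221 and 187 in mub females against 283 to 715. It fell by 1.12 ± 0.26 log2 units (adjusted p = 0.0218), and the control, at 383 and 307 in males and 236 and 291 in females, was also low. CG1503 was 145 and 146 in mub males, just below the 147 to 308 of the others, and 44.2 and 40.6 in mub females against 61.4 to 177. Since signals under 47.4, the lowest level kept, have no order, CG1503 was at least 1.88-fold lower (adjusted p = 0.0191). CG8157, under that level on 3 of the 4 mub arrays, was at least 1.58-fold lower (adjusted p = 0.00787).

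Of the other leading lower genes, cmet is a member of the cell cycle list, while Klp67A, spd-2 and feo are in none of the lists. The gene cmet encodes a kinesin like CENP-E, which links chromosomes to microtubules. It had 67.5 and 57.5 in mub males against 84.3 to 164, and 312 and 352 in mub females against 460 to 749. It fell by 0.82 ± 0.14 log2 units (adjusted p = 0.00409) and stayed called without any 1 mub array. Klp67A, a mitotic kinesin gene, was 65.4 and 52 in mub males against 67.8 to 242, and 771 and 621 in mub females against 849 to 1138, a fall of 0.80 ± 0.18 (adjusted p = 0.0191). The centrosome gene spd-2 was 91.5 and 90.8 in mub males against 106 to 223, and 1687 and 1490 in mub females against 2012 to 3212. It fell by 0.60 ± 0.14 (adjusted p = 0.0218). The gene feo, whose product bundles microtubules of the central spindle, fell by 0.59 ± 0.12 (adjusted p = 0.0113), with 1855 and 1556 in mub females against 2124 to 3182. On none of these 4 did a control array reach down to the mub arrays of its sex.

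Brms1 fell by 0.56 ± 0.10 log2 units (adjusted p = 0.00409), with 951 and 792 in mub females against 1133 to 1715. ValRS-m, the mitochondrial valyl-tRNA synthetase gene, fell by 0.64 ± 0.13 (adjusted p = 0.0112). CG8478 was 72.5 and 93.8 in mub males against 103 to 278, and fell by 0.82 ± 0.17 (adjusted p = 0.0113).

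On the higher side, CG34316 led. Its signals were 709 and 611 in mub males against 119 to 440 (median 249), and 479 and 399 in mub females against 59.4 to 180 (median 103). It rose by 1.75 ± 0.30 log2 units, 3.37-fold (adjusted p = 0.00409), and the control, at 173 and 142 in males and 201 and 105 in females, lay near the other lines. CG18404 was 1991 and 1458 in mub males against 572 to 1433, and 4758 and 5750 in mub females against 745 to 2007. It rose by 1.46 ± 0.25 (adjusted p = 0.00409). CG15531 was the one higher gene called within each sex. It had 6254 and 5988 in mub males against 2209 to 3735, and 3326 and 2706 in mub females against 987 to 2160. It rose by 0.98 ± 0.14 log2 units (adjusted p = 0.00103), by 0.99 ± 0.15 in males (adjusted p = 0.0239) and by 0.97 ± 0.24 in females (adjusted p = 0.038). CG34316 and CG15531 stayed called without any 1 mub array, and of the 12 leading higher genes these were the only ones.

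PMCA, a calcium pump gene of the plasma membrane, was 1011 and 1067 in mub males against 302 to 925, and 560 and 540 in mub females against 151 to 426. It rose 2.04-fold (adjusted p = 0.0326). The gene myo, which encodes the TGF-beta family ligand myoglianin, was 385 and 310 in mub males against 59.3 to 282, and 131 and 220 in mub females against 26.6 to 127. It was at least 2.46-fold higher (adjusted p = 0.0421), while control males, at 377 and 345, were level with mub males. CG15282 was below 47.4 on 19 of the 24 other arrays and at least 2.13-fold higher in mub (adjusted p = 0.0437), with mub males at 120 and 130 and control males at 125 and 95.7. CG16727 rose 2.24-fold, CG34417 2.07-fold, CG14500 1.99-fold, CG32407 1.97-fold and CG14615 1.93-fold. The remaining leader, pyd, is described with the tagged genes.

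**Figure D2:**
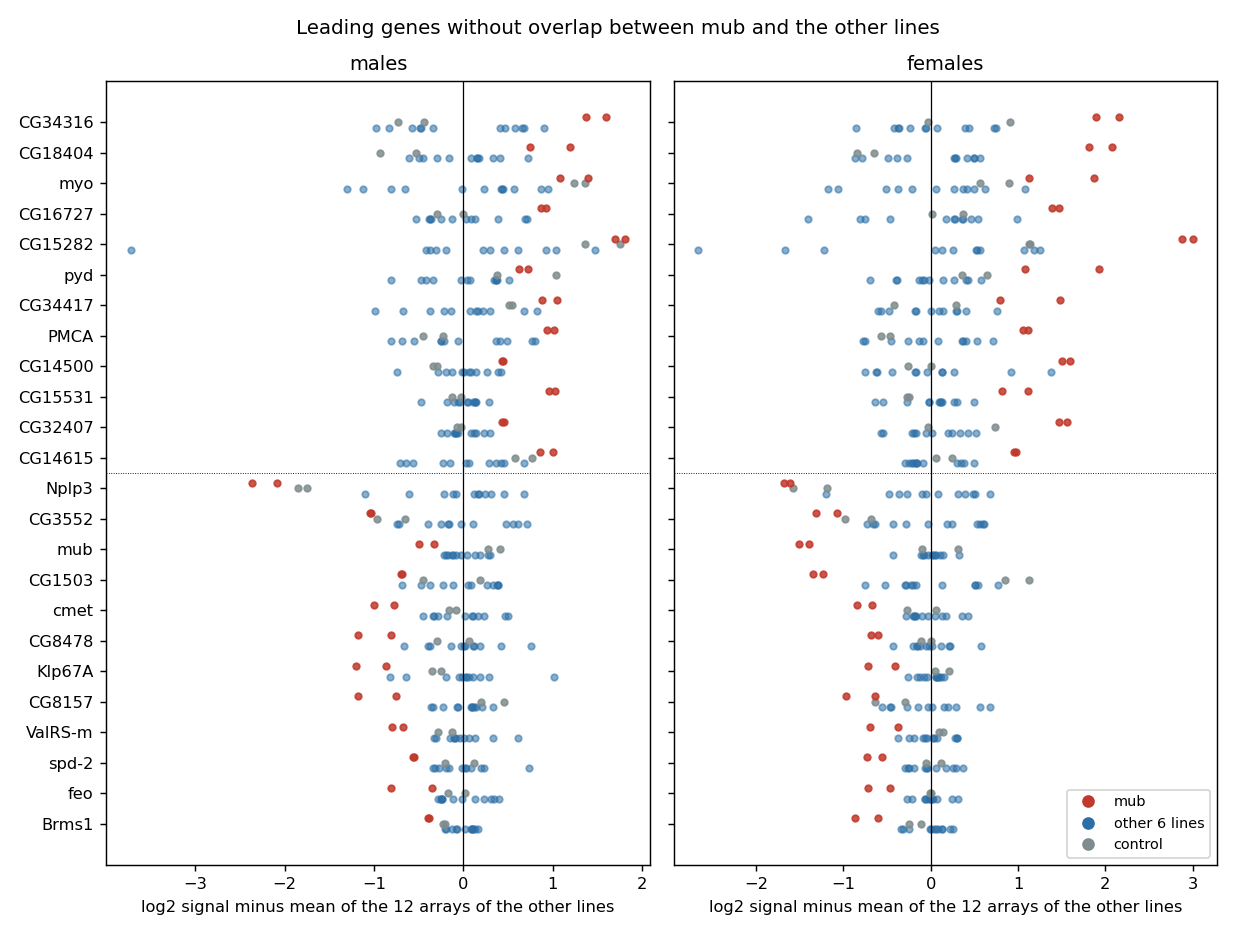
Log2 signal of the 12 leading higher genes (above the dotted line) and the 12 leading lower genes on each array, minus the mean of the 12 arrays of the other lines of that sex; points are arrays of mub, of the other 6 lines and of the control. The mub points lie outside the other lines for every gene. In males control points lie near those of mub for several genes, among them Nplp3, CG3552, myo, CG15282, pyd and CG14615.

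Within males 9 probe sets were called (0.0712%), 3 higher and 6 lower, and 1023 had an unadjusted p under 0.05. Within females 875 were called, 218 higher (1.73%) and 657 lower (5.2%). Without mub female replicate 1, 19 were called in females. The interaction of line and sex, which tests the difference between the sexes itself, called 6 probe sets (0.0475%). With line as a random block the counts were 0 in males, 16 in females and 58 for the interaction.

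Paf-AHalpha, a subunit gene of an acetylhydrolase complex, had the smallest p for a difference between the sexes. It was 684 and 694 in mub females against 1517 to 2763 (median 2083), and 488 and 456 in mub males against 481 to 634. It fell by 1.55 ± 0.17 log2 units in females (adjusted p = 0.00126), the difference in males was −0.18 ± 0.11, and the interaction was 1.36 ± 0.20 (adjusted p = 0.00387). CG32708 was 305 and 281 in mub females against 448 to 642, and 222 and 212 in mub males against 210 to 253 (interaction 0.78 ± 0.15, adjusted p = 0.0485). The gene wda, of the SAGA histone acetylase complex, was 437 and 454 in mub females against 540 to 689, and 187 and 206 in mub males against 144 to 180. It thus lay below the other lines in females and above them in males (interaction 0.73 ± 0.13, adjusted p = 0.0454). The difference within males was not called (0.29 ± 0.10, adjusted p = 0.575), and control males, at 194 and 179, were level with mub males. CG32767 was 930 and 901 in mub males against 206 to 571, and 903 and 915 in mub females against 783 to 1333 (interaction 1.73 ± 0.33, adjusted p = 0.0458). Control males had 814 and 704 there, near mub males.

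Within males, sima, the fly HIF alpha gene of the hypoxia response, was 589 and 643 on the mub arrays against 256 to 367. It rose by 1.02 ± 0.13 log2 units (adjusted p = 0.014), and mub females, at 358 and 424, lay inside the 259 to 474 of the others. CG42240 was 2512 and 2293 against 1055 to 1586 in males and rose 1.89-fold (adjusted p = 0.0335). Jon99Ci, a digestive serine protease gene, was 3900 and 3482 against 5855 to 10021 in males and fell by 1.14 ± 0.17 log2 units (adjusted p = 0.0239), while mub females, at 6810 and 6298, lay within 5733 to 9792. The gene neo was 18.7 and 20.3 in mub males against 44.3 to 152 and fell by at least 0.76 log2 units (adjusted p = 0.0335). CG32564 was 26 and 23.3 against 53 to 125 and fell by at least 0.64 (adjusted p = 0.0335).

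Within females, LManIV, a lysosomal alpha-mannosidase gene, rose most. Its mub arrays gave 1374 and 1127 against 166 to 441 (median 232), a 5.12-fold increase (adjusted p = 0.00482), and it stayed called with line as a random block (adjusted p = 0.0393). In mub males its 475 and 249 lay within 120 to 478. CG14191 was 272 and 342 in mub females against 35.5 to 136 and rose by at least 2.14 log2 units (adjusted p = 0.0216). Arc1, a gene whose product forms capsids, was 4575 and 8027 against 693 to 2047 in females and rose 4.35-fold (adjusted p = 0.0194). In mub males its 5880 and 7257 lay within 3114 to 10895. With line as a random block the adjusted p was 0.0881 for CG14191 and 0.0983 for Arc1.

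On the lower side within females, the chorion gene Cp7Fc was 797 and 731 on the mub arrays against 1570 to 4422 (median 2772). It fell by 1.90 ± 0.29 log2 units (adjusted p = 0.0107), and control females had 1371 and 1307. Jhbp5, of the juvenile hormone binding protein family, was 538 and 278 against 576 to 2096 and fell by 1.84 ± 0.39 (adjusted p = 0.0268), and mub males, at 6097 and 5962, lay within 5696 to 7631. Control females had 914 and 487 for Jhbp5, the lower value lying between those of the mub females. CG10089 was 54.4 and 63.6 in mub females against 96.3 to 415 and fell by 1.75 ± 0.44 (adjusted p = 0.0391), with control females as low at 37.5 and 55.8. With line as a random block the adjusted p was 0.0557 for Cp7Fc, 0.109 for Jhbp5 and 0.11 for CG10089.

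Gene lists were described with 1 probe set for each of 10,311 genes. Of all these genes 101 were higher in mub (0.98%) and 190 lower (1.84%), and within females 156 were higher (1.51%) and 582 lower (5.64%). The median difference was −0.02, with −0.05 in females. Counts below are of the members that passed the filter on low signals. RNA of whole flies cannot tell fewer cells of a type from less RNA per cell.

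Of 33 cell cycle genes kept, 8 were lower in mub and 0 higher, with a median difference of −0.33, −0.27 in males and −0.46 in females. Besides cmet these were Nuf2, Ndc80, Klp61F, barr, Cdk2, Bub3 and thr. Nuf2 and Ndc80 encode kinetochore proteins that hold microtubules. Nuf2 was 66.5 and 69.1 in mub males against 72.9 to 121, and 448 and 501 in mub females against 588 to 768, a fall of 0.50 ± 0.10 log2 units (adjusted p = 0.00984). Ndc80 was 354 and 425 in mub females against 529 to 810 and fell by at least 0.54 over both sexes (adjusted p = 0.0112). Klp61F, a kinesin gene of the spindle poles, was 645 and 597 in mub females against 717 to 997 and fell by at least 0.51 (adjusted p = 0.0299).

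The calls in this list were less stable than its median. Without mub female replicate 1, and also without replicate 2, 1 of the 33 cell cycle genes was called, without either mub male array 3 or 4, after quantile normalization 2, with arrays centred 4, and with line as a random block 0. In all of these the median stayed between −0.39 and −0.28.

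Of 34 DNA replication genes 3 were lower and 0 higher (median −0.24, −0.44 in females). Mcm10, which acts at the start of replication, was 650 and 698 in mub females against 886 to 1259 and fell by at least 0.44 log2 units (adjusted p = 0.0136). Sld5, of the GINS complex, was 369 and 387 in mub females against 401 to 676 and fell by 0.47 ± 0.11 (adjusted p = 0.0199). Mcm5, of the replicative helicase, was called over both sexes (adjusted p = 0.0267), but both mub males and 5 of the other males were under 47.4. Its mub females had 1878 and 1691 against 1948 to 2998. Of 26 DNA repair genes 2 were lower and 0 higher (median −0.19, −0.39 in females). Xpd, a helicase gene of TFIIH, was 319 and 337 in mub females against 411 to 540, and 96.2 and 99.4 in mub males against 98.7 to 138. It fell by 0.42 ± 0.07 (adjusted p = 0.00409) and stayed called without any 1 mub array. The exonuclease gene tos was 1125 and 920 in mub females against 1276 to 1708 and fell by 0.55 ± 0.11 within females (adjusted p = 0.023), and all mub and other males were under 47.4. The 3 replication genes were not called without mub female replicate 1, without replicate 2, after quantile normalization or with line as a random block. Of the repair genes 1 was called without either mub female array (median −0.15 and −0.12), and 0 after quantile normalization (median −0.10) or with line as a random block.

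Of 28 ovarian germline genes, mael and tej were lower and 0 higher, and within females 11 were lower. The median difference in females was −0.47. Both genes act in the piRNA pathway, which silences transposons in the germ line. In females mael was 474 and 390 on the mub arrays against 694 to 1215 (median 877), 2.05-fold lower (adjusted p = 0.0139), and control females had 1097 and 1236. For tej both mub males and 11 of the 12 other males were under 47.4, so its fall was measured in females only. It was 520 and 527 in mub females against 612 to 959, a fall of 0.55 ± 0.14 within females (adjusted p = 0.0432). Other piRNA pathway genes called within females were aub, spn-E, krimp, zuc and del, which fell by 0.38 to 0.56 log2 units. Also called were orb, plu, gnu and alphaTub67C. Over both sexes 1 germline gene was called without mub female replicate 1, and 0 without replicate 2 or with line as a random block. None of the 11 stayed called within females without mub female replicate 1 or without replicate 2, or with line as a random block. The oocyte transcripts osk and bcd were not called. In mub females osk was 6314 and 5752 against 6038 to 8206, and bcd 2444 and 2418 against 2362 to 4105.

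Of 17 yolk and eggshell genes 0 were called over both sexes, and Cp7Fc alone within females. Yp1 and Yp2, at 14690 and 17108 and at 16648 and 18768 in mub females, lay within the 11635 to 18875 and 12760 to 21699 of the others. Yp3, the other yolk protein gene, was 16033 and 18335 against 11473 to 17986, with 1 mub array above the range, and was not called. The mean log2 level of the list was 12 and 12.27 in mub females against 11.54 to 12.67. The levels of the ovarian germline list, at 10.34 and 10.42 in mub females against 10.65 to 10.99, did not overlap.

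The lists of general nuclear functions had smaller differences. Of 30 core spliceosome genes 3 were lower and 0 higher (median −0.15, −0.33 in females). SmD1 and SmF, which encode proteins of the ring on spliceosomal RNAs, fell by 0.33 ± 0.08 (adjusted p = 0.0355) and 0.35 ± 0.09 (adjusted p = 0.0366). In mub females SmD1 was 1303 and 1298 against 1399 to 2086. The third, l(1)10Bb, was 595 and 601 in mub males against 688 to 925 and fell by 0.34 ± 0.08 (adjusted p = 0.0214). Of 35 chromatin genes 2 were lower, the nucleosome remodeller gene Iswi by 0.35 ± 0.08 (adjusted p = 0.0195) and the histone variant gene His2Av by 0.26 ± 0.07 (adjusted p = 0.0421). Of 21 ribosome biogenesis genes Nph, a nucleophosmin gene, was lower. It was 1419 and 1410 in mub males against 1721 to 2136, and 5722 and 5795 in mub females against 6274 to 8313 (adjusted p = 0.0068), and it stayed called without any 1 mub array. No core spliceosome gene stayed called when any 1 of the 4 mub arrays was left out or after quantile normalization, and no chromatin gene without either mub female array. With line as a random block 0 genes of these 3 lists were called.

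**Figure D3:**
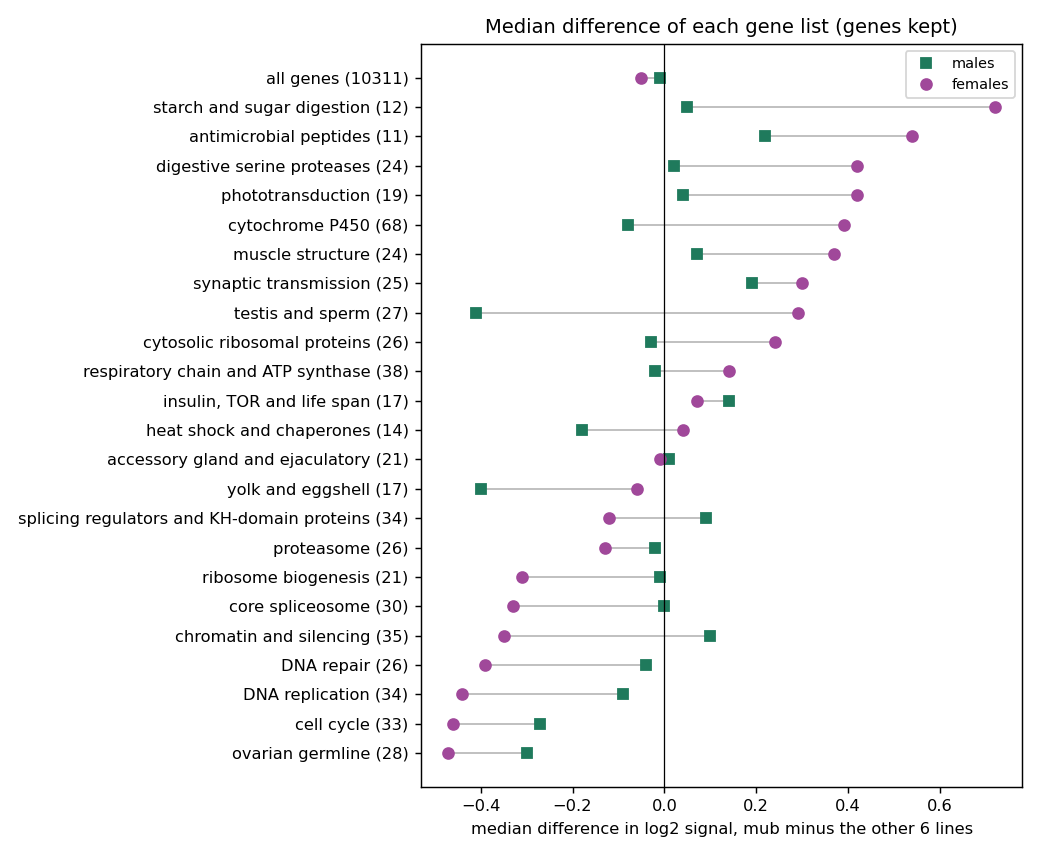
Median difference in log2 signal, mub minus the other 6 lines, of each gene list in males (squares) and females (circles), with the number of genes kept in brackets. In females the ovarian germline list lies lowest at −0.47 and starch and sugar digestion highest at 0.72, with all 10,311 genes at −0.05.

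Several lists of body tissues had positive medians in females, with few members called. Starch and sugar digestion genes had a median of 0.72 in females and 0.05 in males. Their mean log2 level was 11.21 and 11.54 on the mub female arrays against 10.48 to 10.93 in the other females, and 11.06 and 11.29 in control females. The mub females lay above the other lines, and beside the control. Of the 12 genes the maltase gene Mal-A3 was called, within females (1.06 ± 0.28, adjusted p = 0.0432). Its signals there were 3207 and 2063 against 912 to 2356, so the groups overlapped. Digestive serine proteases had a median of 0.42 in females and 0.02 in males, and Jon99Ci, on the lower side, was the one member called. Phototransduction genes had a median of 0.42 in females, with ninaD called within females (rise of at least 1.60, adjusted p = 0.0445), and muscle structure genes 0.37, with 0 of 24 called. Cytochrome P450 genes had a median of 0.39 in females and −0.08 in males. Within females Cyp6g1, Cyp12b2 and Cyp9f2 rose by 0.79, 0.56 and 0.48 log2 units and Cyp6a19 fell by 0.43. None of 11 antimicrobial peptide genes, 25 synaptic transmission genes, 26 cytosolic ribosomal protein genes, 38 respiratory chain genes, 26 proteasome genes and 14 chaperone genes was called, over both sexes or within females. Their medians in females were 0.54, 0.3, 0.24, 0.14, −0.13 and 0.04, and after quantile normalization 0.29, 0.16, 0, 0.02, −0.23 and −0.11. Without mub female replicate 1 the median of the antimicrobial peptide genes was 1.23. Quantile normalization also gave medians of 0.27 for digestive serine proteases and 0.24 for cytochrome P450 genes, and calls within females of 1 proteasome gene and 2 muscle genes. With arrays centred, 2 synaptic genes were called over both sexes. Of 17 insulin, TOR and life span genes 0 were called over both sexes, and within females the catalase gene Cat rose by 0.48 ± 0.12 (adjusted p = 0.0394) and Tsc1 fell by 0.42 ± 0.09 (adjusted p = 0.0273). None of the calls within females in the lists of this paragraph held with line as a random block, without mub female replicate 1 or without replicate 2.

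The called genes were unevenly spread between those brighter in females and those brighter in males. On the arrays of the other lines, which also serve as the reference, 44.4% of all kept probe sets were higher in females. Of those called lower in mub 85.9% were higher in females, and of those called higher in mub 14.6%. Testis and sperm genes had a median of −0.41 in males with 0 of 27 called, and accessory gland and ejaculatory genes 0.01 with 0 of 21 called.

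**Figure D4:**
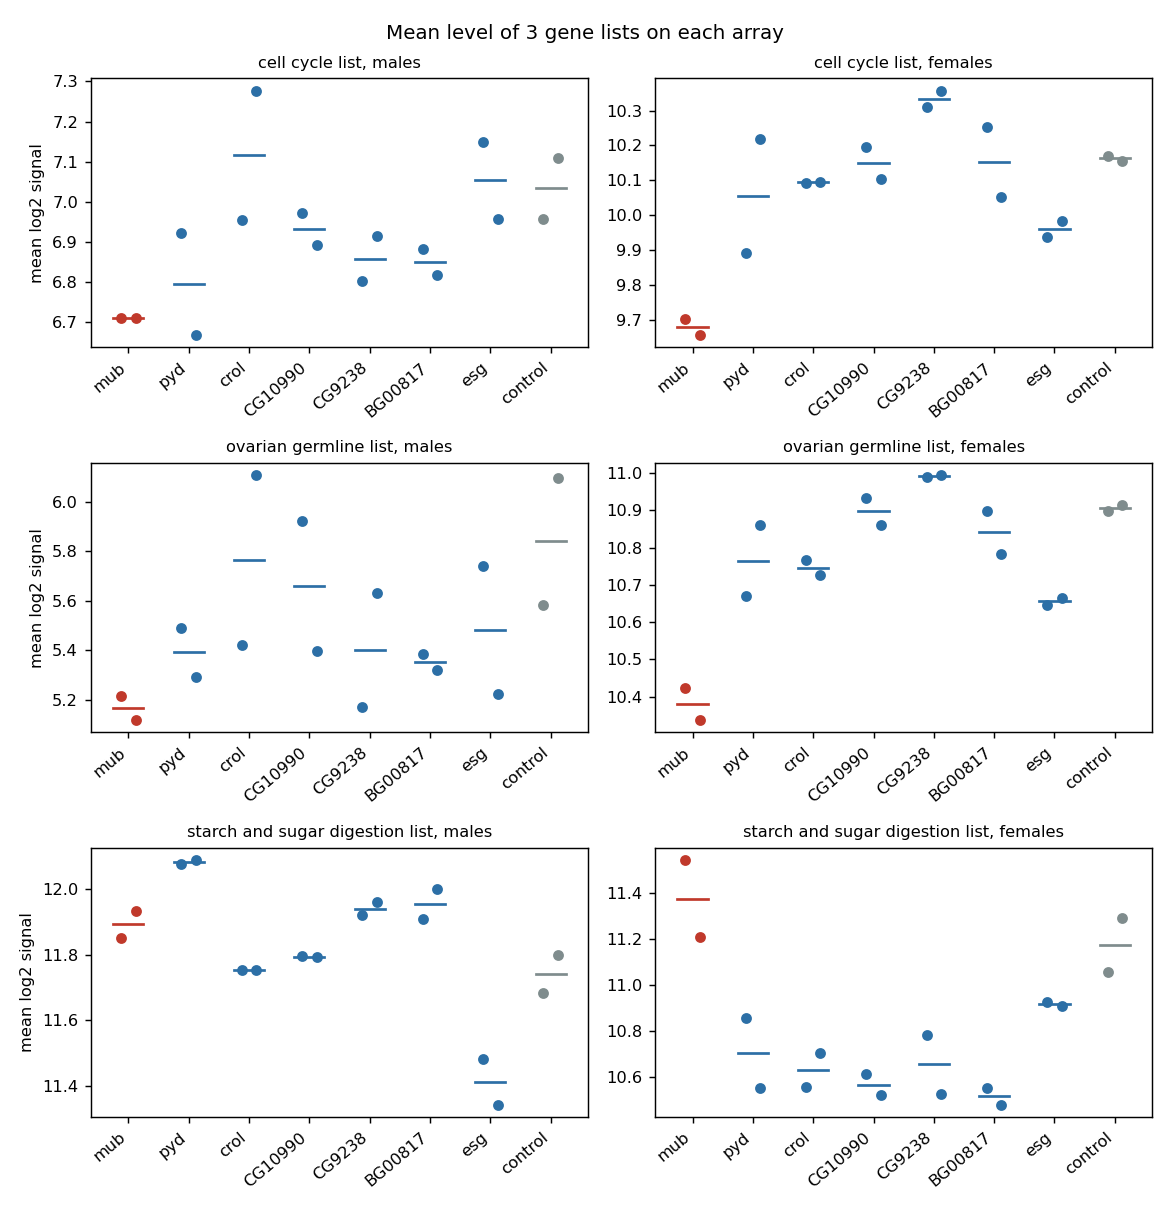
Mean log2 signal of the kept genes of the cell cycle, ovarian germline and starch and sugar digestion lists on each array, by line and sex; points are arrays, bars the mean of 2, and the vertical ranges differ between panels. In females mub lies below all other arrays for the first 2 lists (9.66 to 9.70 and 10.34 to 10.42) and, for starch and sugar digestion, above the other 6 lines and beside the control.

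Because mub is counted among splicing regulators, other such genes were examined as a list. Of 34 splicing regulators and KH-domain genes kept, mub was the only one called lower over both sexes and elav the only one called higher. The median was −0.04, which turned to 0.02 after quantile normalization and to 0.01 with arrays centred or without mub female replicate 2. The neuronal RNA-binding protein gene elav was 149 and 168 in mub females against 35.3 to 76.6, and rose by at least 1.49 log2 units within females (adjusted p = 0.0107). In mub males its 123 and 150 lay within 80.6 to 180. The splicing factor gene mbl rose by at least 0.57 within females (adjusted p = 0.034), from below 47.4 on all other female arrays to 54.9 and 90.7. Neither elav nor mbl stayed called within females with line as a random block or without either mub female array, and over both sexes the adjusted p of elav with that block was 0.313.

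Genes with 2 or more probe sets were used to look for transcript forms that moved apart. Of 620 genes, 4 were called (0.645%), mub, CG1637, wcy and pyd, and 74 had an unadjusted p under 0.05. In pyd the brighter probe set, 1637428_a_at, differed by −0.09 ± 0.16 and the dimmer, 1637322_at, rose by 1.09 ± 0.22. In CG1637 the brighter one differed by −0.12 ± 0.07 and the dimmer rose by 0.41 ± 0.10 (adjusted p = 0.0307). In wcy the dimmer probe set was under 47.4 on 23 of the 24 other arrays and on 2 of the 4 mub arrays, which leaves its shift unmeasured. Without mub female replicate 1, without replicate 2, and with line as a random block, 0 pairs were called. Without either mub male array 1 pair was called. The same test called 41 pairs in pyd, 7 in CG9238, 4 in BG00817, 1 each in crol and esg and 0 in CG10990.

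Of the genes tagged in the other lines, pyd, which encodes the junction protein ZO-1, was higher in mub by 1 of its 4 probe sets. Probe set 1637322_at was 682 and 729 in mub males against 254 to 631, and 354 and 640 in mub females against 104 to 250 (adjusted p = 0.0115). Control males, at 573 and 905, overlapped mub males. Gbs-70E, Pdcd4 and esg were not called, with differences of 0.50 ± 0.19, −0.04 ± 0.36 and 0.22 ± 0.20. The reference for each gene includes the line in which it is tagged. Mean signals of Pdcd4 in CG10990 were 89.8 in males and 293 in females, against medians of 369 and 721 over all other lines than mub. For Gbs-70E in CG9238 they were 4070 and 2212 against 5533 and 4660, and for esg in its line 142 and 107 against 156 and 115. The sign of Pdcd4 turned with the scaling (0.08 after quantile normalization, 0.01 with arrays centred). The tagged gene crol had no kept probe set with 1 symbol and is not described.

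Genes beside mub were also examined. Of the 40 nearest genes, 20 on each side, 19 had a kept probe set and 1 was called over both sexes, beside 2.6% of all probe sets. CG7148, 4 places away, was 262 and 288 in mub males against 283 to 334, and 307 and 348 in mub females against 368 to 534. It fell by 0.27 ± 0.07 log2 units (adjusted p = 0.0451), with overlap in males. The closest neighbours with a kept probe set on that side, P5CDh1 and Nopp140, differed by 0.02 ± 0.09 and 0.02 ± 0.11. Within females PolH, 5 places away on the other side, was 951 and 687 against 1065 to 1478 and fell by 0.65 ± 0.14 (adjusted p = 0.0273), the only neighbour called there.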

How the data were processed

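Whole-fly RNA was hybridized to Affymetrix Drosophila Genome 2.0 arrays. The deposited intensity values are MAS5 signals made by the authors (version not given in the sources used here). The study's methods name a median of 500 as target, and the 2% trimmed mean of each array was 500. Of 18,952 probe sets 183 array controls were dropped. The rest were ranked by the lower of the 2 replicate signals in a group, at its highest over 16 groups, and the top 12,636 (47.4 or more) were used. Changes that involve signals under 47.4 are bounds, with those signals raised to it.

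The log2 of the deposited signals was fitted with limma 3.58.1 in R 4.3.3 on 28 arrays, with Benjamini-Hochberg adjustment. The terms of the main fit were sex and mub against the other insertion lines. Arrays of those other lines were pooled, without a term for each line. Per the study's methods the 2 pools of a line and sex came from 1 collection of flies, so the spread between these pools may be technical. The error of the main fit held that spread together with the differences among the other lines. Its p-values therefore concern only these samples. The number of arrays limits precision. The fits were also run on simulated arrays, drawn independently and without differences among the other lines. That run cannot show how the fits behave where arrays of 1 line are correlated.

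Of the probe sets used, 11,145 carry 1 symbol, 342 several and 1,149 none. Lists (24, with 808 entries) take for each gene its brightest kept probe set. The line, the lists and the rule for named genes were chosen with earlier results of these data known. The rule names mub and white (white was not analysed here), the 12 leaders on each side called without overlap, up to 4 called members of each list, the smallest p by sex and among pairs, 4 leaders on each side within a sex, called neighbours and tagged genes. Other names were chosen after their values were seen. Alternatives were other scalings, filters, offsets, models and references, and each array left out.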

Additional observations from a re-analysis of the deposited data

Results flagged for a closer look

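For 6 probe sets the difference between mub and the other lines was itself different in males and females (limma interaction, adjusted p of at most 0.05). The difference in males minus that in females was 1.36 log2 units for Paf-AHalpha, 1.73 for CG32767, 1.04 for mub (1627456_s_at), 0.78 for CG32708 and 0.73 for wda. It was 0.75 for probe set 1636919_at, which has no symbol in the annotation used. Of the 5 with a symbol, all stayed called with line as a random block. When 1 mub array was left out, Paf-AHalpha stayed called in 3 of 4 fits and the other 4 genes in 0.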

How the results depend on the processing

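Of the genes the rule names, no called difference changed sign under any alternative; that of Pdcd4, not called, did so under several. Counts of called probe sets that moved by over 1.5 times are given here, against 328 over both sexes, 92 without overlap, 6 by sex, 9 in males, 875 in females and 4 pairs; the causes were not tested. Quantile normalization gave 137 over both sexes, 43 without overlap (27 higher, 16 lower) and 4 in males. Centring on medians gave 3 by sex and 305 in females, and 72 higher and 18 lower without overlap. Without a filter there were 115, 52 without overlap, 2 by sex, 90 in females and 0 pairs. A filter at 100 gave 10 by sex and 5 in males, an offset of 50 gave 15 by sex, 5 in males and 1477 in females, and raising low signals to 47.4 gave 34 by sex and 1510 in females. Another fit kept the single arrays but gave each line and sex its own mean. Its error thus held only the spread between the 2 pools of a group, without the differences among lines. It gave 2433, 944 by sex, 278 in males, 3211 in females and 16 pairs. Line as a random block gave 1, 1 without overlap, 58 by sex, 0 in males, 16 in females and 0 pairs. An intensity trend gave 14 in males and 1352 in females. The control as a seventh line gave 534, 16 by sex, 1405 in females and 1 pair.

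Leaving pyd out of the reference gave 747, 188 without overlap, 48 by sex, 1760 in females and 7 pairs. Without crol there were 201, 4 in males, 210 in females and 1 pair. Without CG10990 there were 212, 1 by sex, 1 in males and 169 in females. Without CG9238 there were 211, 1 by sex, 18 in males, 396 in females and 1 pair. Without BG00817 there were 10 by sex, 180 in females and 1 pair, and without esg 1334 in females. Leaving out 1 array gave 17 to 407 over both sexes, 12 to 128 without overlap, 1 to 15 by sex, 0 to 14 in males, 19 to 1669 in females and 0 to 7 pairs.

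Deviations of same-numbered arrays correlated weakly, at −0.111 to 0.237, which does not settle whether replicate numbers pair the samples. A replicate block gave 282 over both sexes, 84 without overlap, 1 by sex, 2 in males, 420 in females and 4 pairs.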
